A study of Mus musculus with 6 samples.

Results

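The 10 mouse BH3-only genes (*Bcl2l11*, *Bid*, *Bbc3*, *Pmaip1*, *Bad*, *Bmf*, *Bik*, *Hrk*, *Bnip3* and *Bnip3l*) were followed in activated B cells with and without the RNA-binding protein hnRNPL. They were taken by gene symbol, all 10 were found among the 55421 genes of the table, and 8 of them were among the 17640 genes that were tested because their mean over the 6 libraries reached 10 normalized counts. RNA-seq was done on splenic B cells of 3 *CD21-cre* mice (WT) and 3 *CD21-cre Hnrnpl* F/F mice (hnRNPL-deficient), with 1 library per mouse. Mice of both groups carried the *Rosa* mT/mG reporter, which turns on GFP in cells where Cre has acted, and GFP+ cells were sorted after 24 h of culture with 5 µg/ml of LPS and 5 ng/ml of IL-4. Thus the Cre transgene, the reporter, the sort and both stimuli were common to the 2 groups, which differed by the floxed *Hnrnpl* alleles. *CD21-cre* acts mostly in mature B cells, and sorting on GFP selects cells in which Cre acted on the reporter, not on *Hnrnpl* itself. The study used male and female adult mice of the C57BL6/J background, and neither the sex nor the exact age of each donor was given in the labels.

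BH3-only proteins are the sensors of the mitochondrial pathway of apoptosis. Each carries a short helix, the BH3 domain, which binds the groove of antiapoptotic proteins such as BCL2 and MCL1, or activates the pore-forming proteins BAX and BAK directly, after which cytochrome c leaves the mitochondria and caspases are activated. BIM (*Bcl2l11*) is the member best known for removing lymphocytes, PUMA (*Bbc3*) and NOXA (*Pmaip1*) are known targets of p53, BID is cleaved by caspase-8, and BNIP3 and NIX (*Bnip3l*) are atypical members that mainly mark mitochondria for autophagy.

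The domain has a core of a leucine, 3 residues, a small residue (glycine, alanine or serine) and an aspartate. This core was read in the translated longest complete coding sequence of each of the 10 members in GENCODE M21 on GRCm38. It was found in all of them, once in each except *Pmaip1*, which had 2 matches. Since the core is short, it was also found in 34.0% of 21506 protein-coding genes, and in 16.2% of the 6503 with proteins of at most 300 residues. For 5 members, the 24 bases that start with the leucine codon and end 2 codons after the aspartate codon are shown here, because this is the feature that defines the family. The leucine and aspartate codons are in capitals.
Bcl2l11: CTGcggcggatcggaGACgagttc
Bbc3: CTGcggcggatggcgGACgacctc
Bid: CTCgcccaaataggcGATgagatg
Bad: CTCcgaaggatgagcGATgagttt
Bmf: CTTcagtgtattgcaGACcagttc
These lie in coding exons at chr2:128147150-128147173 on the plus strand (*Bcl2l11*), chr7:16313773-16313796 on the plus strand (*Bbc3*), chr6:120897292-120897315 on the minus strand (*Bid*), chr19:6950792-6950815 on the plus strand (*Bad*) and chr2:118545103-118545126 on the minus strand (*Bmf*). Of the 5 complete coding transcripts of *Bcl2l11*, 4 held the core. The counts used here were made per gene, so that transcripts with and without it were counted together.

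The libraries held 40395186 to 75180749 reads on genes, so that 3 reads, used as the limit below which a gene is not distinguished from 0, corresponded to 2.29 to 4.11 normalized counts. *Hnrnpl* itself had 24371, 25580 and 24174 normalized counts in WT libraries 1 to 3, and 2178, 1519 and 1297 in hnRNPL-deficient libraries 1 to 3, and its mean fell by 93.3%. The B cell marker *Cd79a*, a chain of the B cell receptor complex, had 17288–19661 normalized counts in the WT libraries and 19149–24298 in those of hnRNPL-deficient cells, and *Pax5*, the factor that maintains B cell identity, at 130876–204678 and 131038–189706. Other B cell markers differed, in both directions. *Cd22* had a log2 fold change of -0.55 (limma adjusted p of 0.0099) and *Ms4a1* one of -0.40 (0.0988), both without overlap of the groups and under the fold required for a call, while *Cr2*, which encodes CD21, was called higher at 0.85 (0.0444). The 6 T cell markers summed to 19.7–27.7 and 28.3–38.4, and the 5 erythroid markers to 13.8–37.1 and 54.1–82.8. The 6 myeloid markers summed to 260–332 in WT and 1239–1382 in hnRNPL-deficient libraries, almost all of it *Adgre1*, whereas *S100a8* was at 0 in all 6 and *Lyz2* was at 0 in all but hnRNPL-deficient library 2, with 2.02. Summed NK cell markers reached 7.21 at most, and the 4 plasma cell markers summed to 1640–1838 in WT and 1389–1908 in hnRNPL-deficient libraries. Most of the plasma cell sum was *Prdm1*, so it hides the change of *Jchain*. *Jchain* was called lower, with a log2 fold change of -2.31 (limma adjusted p of 0.0509) and no overlap of the groups. *Sdc1* and *Prdm1* were at -0.14 and -0.04 and were not called. The part of these markers in the results was not tested. *Xist*, which is expressed from the inactive X chromosome, was high in WT library 3 and hnRNPL-deficient library 2 and at 2.32 to 7.21 normalized counts in the other 4, hence 1 library of each group stood apart in the same way.

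The BH3-only genes did not move as a group between WT and hnRNPL-deficient cells. *Bcl2l11* and *Bnip3l* rose to 1.82 and 1.77 times their WT mean, the mean of *Bid* differed by -25.8%, which is under the minimum fold, and no change was called for *Pmaip1*, *Bbc3*, *Bmf*, *Bad* or *Bnip3*. *Bik* and *Hrk* were at or near 0 in every library. A gene was called changed at a Benjamini-Hochberg adjusted p under 0.1 in limma and a fold change of at least 1.5. Of the 8 tested members 2 were called higher and 0 lower, where 7.28% of all tested genes were called higher and 4.08% lower. The median log2 fold change (hnRNPL-deficient over WT) of the 8 was 0.40, compared to -0.03 for all tested genes. Of the 8, 5 had a positive log2 fold change, as did 47.3% of all tested genes. In bulk RNA, fewer cells that express a gene and less of its RNA per cell cannot be told apart.

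**Figure D1:**
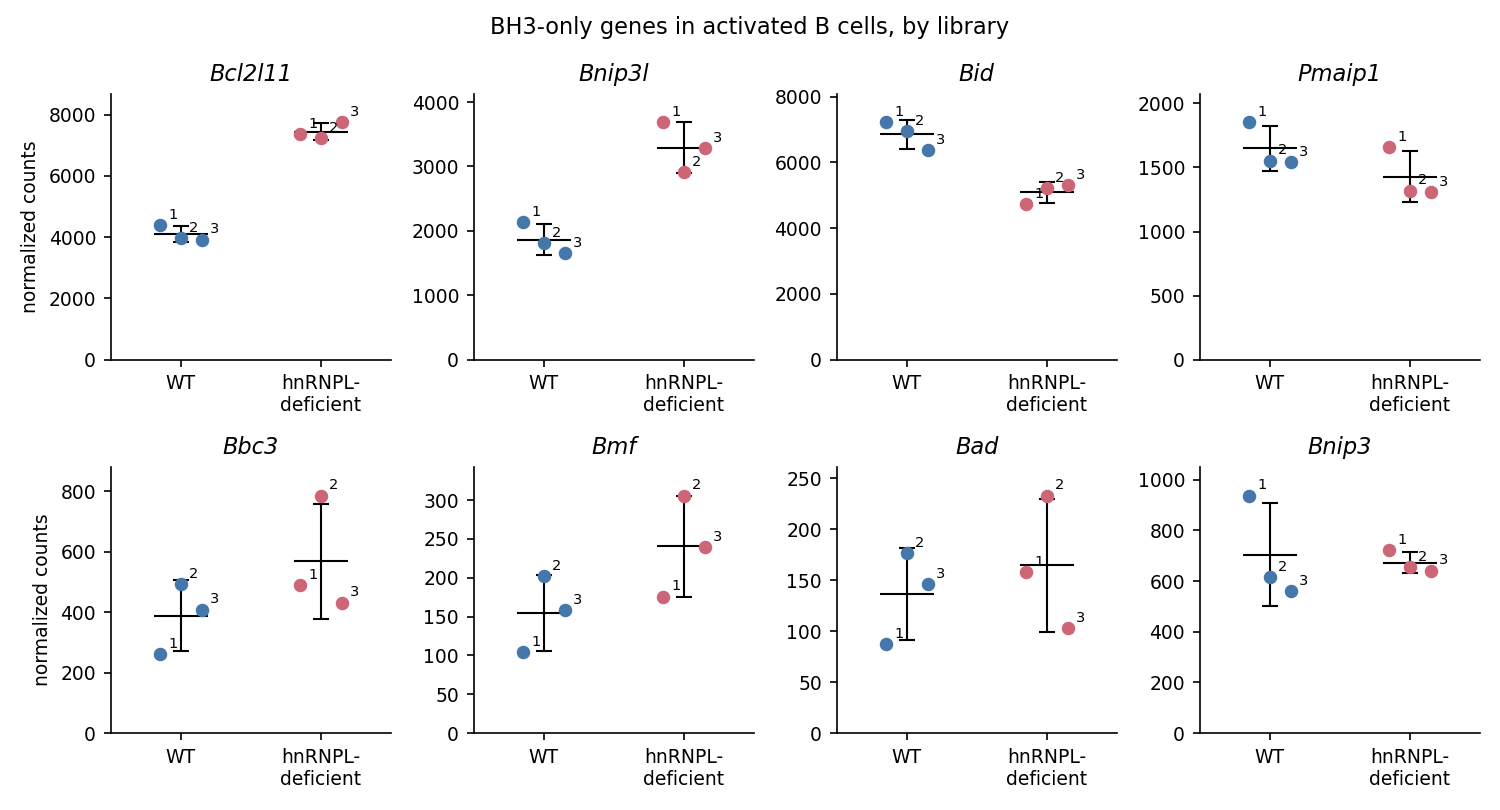
Normalized counts of the 8 tested BH3-only genes (y axis, linear and starting at 0) in each WT and hnRNPL-deficient library (points, with the library number); the bars are the mean ± SD, n = 3 mice per group. The groups do not overlap for *Bcl2l11*, *Bnip3l* and *Bid* and overlap for the other 5.

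Among the members that can both bind antiapoptotic proteins and activate BAX or BAK, *Bcl2l11* and *Bid* had opposite signs. *Bcl2l11* (ENSMUSG00000027381.16, chr2:128126038-128162547, plus strand) had 4389, 3956 and 3921 normalized counts in WT libraries 1 to 3, and 7358, 7225 and 7758 in hnRNPL-deficient libraries 1 to 3. All 3 hnRNPL-deficient values were well above the highest WT value, and the spread within each group was small. The mean of 7447 ± 277, against 4088 ± 261 in WT (SD, n = 3 each), corresponded to a log2 fold change of 0.87 with a standard error of 0.0922, a 95% interval of 0.66 to 1.08 and a limma adjusted p of 0.0012. Under 20 other settings of the processing the log2 fold change was between 0.84 and 0.97, and *Bcl2l11* was called in each of them.

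*Bid* (ENSMUSG00000004446.12, chr6:120891930-120916853, minus strand) had 7227, 6958 and 6361 normalized counts in WT, and 4723, 5222 and 5307 in hnRNPL-deficient libraries. Every hnRNPL-deficient value was below every WT value, but the mean of 5084 ± 315 was within 1.5-fold of the WT mean of 6848 ± 443. The log2 fold change of -0.43 (standard error 0.0971, 95% interval -0.65 to -0.21) had a limma adjusted p of 0.0264, under the threshold, while its size was below the fold required for a call. At the same adjusted p with no minimum fold, 7.97% of all tested genes were lower. Without WT library 2, the adjusted p was 0.101 and the log2 fold change was -0.42.

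Relative to each other, these members shifted in each library. The level of *Bcl2l11* per kb of exon over that of *Bid* was 0.269, 0.251 and 0.273 in WT, and 0.689, 0.612 and 0.646 in hnRNPL-deficient libraries. Such a ratio does not depend on how the libraries were scaled. It was chosen after the values were seen, and is given without a test.

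*Bbc3* (ENSMUSG00000002083.13, chr7:16308393-16318205, plus strand), which encodes PUMA, another activator, had 261, 493 and 408 normalized counts in WT, and 489, 786 and 432 in hnRNPL-deficient libraries. WT library 2 exceeded 2 of the 3 hnRNPL-deficient libraries, so the groups overlapped. The means were 387 ± 117 and 569 ± 190. Its log2 fold change was 0.55 (standard error 0.288, 95% interval -0.11 to 1.21) and the limma adjusted p was 0.258. The interval holds both no change and a change above 2.0-fold. *Bbc3* was called only after correction of each library for GC content, with a log2 fold change of 0.69 and an adjusted p of 0.0436, and its log2 fold change was 0.29 without WT library 1 or without hnRNPL-deficient library 2.

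The sensitizers, which bind only antiapoptotic proteins, gave no call. *Pmaip1* (ENSMUSG00000024521.8, chr18:66458533-66465565, plus strand) encodes NOXA, which binds MCL1 and A1, and had 1854, 1553 and 1541 normalized counts in WT and 1661, 1320 and 1308 in hnRNPL-deficient libraries. Within each group, library 1 was the highest, and the groups overlapped. The log2 fold change was -0.21 (95% interval -0.52 to 0.10) with a limma adjusted p of 0.359, so that a rise of *Pmaip1* of the size seen for *Bcl2l11* lies outside its interval. With 1 library left out, the log2 fold change was between -0.32 (without hnRNPL-deficient library 1) and -0.12 (without WT library 1).

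*Bmf* (ENSMUSG00000040093.16, chr2:118528757-118549687, minus strand), whose protein is held on the cytoskeleton, had 104, 202 and 158 normalized counts in WT and 176, 306 and 240 in hnRNPL-deficient libraries. The WT mean was 155 ± 49.0 and the hnRNPL-deficient mean 241 ± 65.1, a ratio of 1.55, but WT library 2 lay above hnRNPL-deficient library 1. The log2 fold change of 0.65 (95% interval -0.03 to 1.32) had a limma adjusted p of 0.20. With 1 library left out it was between 0.39 (without WT library 1) and 0.86 (without WT library 2).

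*Bad* (ENSMUSG00000024959.14, chr19:6941861-6951899, plus strand), whose protein is inactivated by phosphorylation downstream of growth factors, had 87.0, 176 and 146 normalized counts in WT and 158, 233 and 103 in hnRNPL-deficient libraries. The groups overlapped throughout. Its log2 fold change was 0.25 with a 95% interval of -0.57 to 1.07 (limma adjusted p of 0.689). The sign turned without WT library 1 (-0.042) or without hnRNPL-deficient library 2 (-0.039), and the value was 0.55 without hnRNPL-deficient library 3. Only 75 to 231 reads per library lay on *Bad*. The 75 reads of WT library 1 have an exact Poisson 95% interval of 59.0 to 94.0, and the 204 of WT library 2 one of 177 to 234. These intervals cover counting error only, and the 2 libraries also differ in depth and in mouse.

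*Bik* (ENSMUSG00000016758.4, chr15:83526862-83544634, plus strand) and *Hrk* (ENSMUSG00000046607.6, chr5:118164648-118189478, plus strand) encode the remaining sensitizers and were below the filter of the main test. *Bik* had 0, 3.46 and 3.06 normalized counts in WT and 2.7, 3.03 and 0 in hnRNPL-deficient libraries, from 0 to 4 reads. *Hrk* had 1.16, 0 and 0 in WT and 0.90, 1.01 and 2.74 in hnRNPL-deficient libraries, from 0 to 2 reads. Both were at about the limit of 3 reads, hence a difference between the groups was not detectable at this depth and no fold is given.

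Of the paralogs *Bnip3l* and *Bnip3*, the first was called and the second was not. *Bnip3l* (ENSMUSG00000022051.15, chr14:66985239-67008877, minus strand), which encodes the mitophagy receptor NIX, had 2131, 1811 and 1651 normalized counts in WT, and 3690, 2909 and 3283 in hnRNPL-deficient libraries. The lowest hnRNPL-deficient library was well above the highest WT library. The mean of 3294 ± 391, against 1864 ± 244 in WT, corresponded to a log2 fold change of 0.82 with a standard error of 0.133, a 95% interval of 0.52 to 1.13 and a limma adjusted p of 0.0073. It was called under each of the 20 other settings, with log2 fold changes from 0.74 to 0.95.

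*Bnip3* (ENSMUSG00000078566.8, chr7:138890836-138909519, minus strand), a hypoxia-induced receptor of the same kind, had 938, 616 and 560 normalized counts in WT and 722, 656 and 641 in hnRNPL-deficient libraries. WT library 1 stood above all others, and the hnRNPL-deficient values lay inside the WT range. The log2 fold change was -0.03 (95% interval -0.48 to 0.42) with a limma adjusted p of 0.939, and its sign turned with 4 of the other settings. The level of *Bnip3l* per kb over that of *Bnip3* was 1.33, 1.72 and 1.73 in WT, and 3.0, 2.60 and 3.0 in hnRNPL-deficient libraries, a description that was also chosen after the values were seen.

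**Figure D2:**
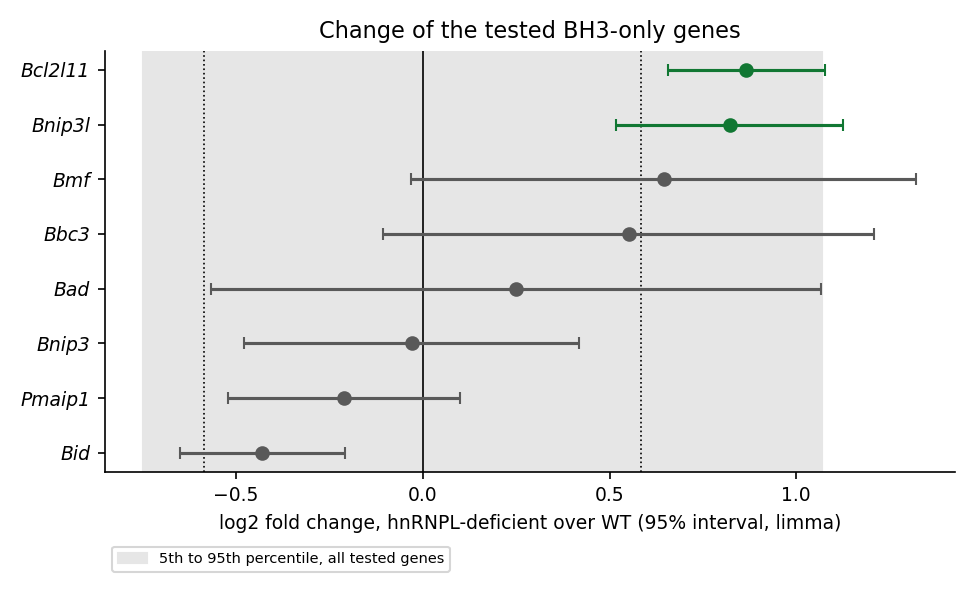
Log2 fold change of each tested BH3-only gene (x axis, hnRNPL-deficient over WT; points are limma estimates and bars their 95% intervals, n = 3 mice per group), with the called genes in green, dotted lines at 1.5-fold and the range of the 5th to 95th percentile of all tested genes (-0.75 to 1.07) in grey. The intervals of *Bcl2l11* and *Bnip3l* lie above 0, that of *Bid* lies below 0, and the other 5 include 0.

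The groups did not overlap, in the higher direction, for 2 of the 8 tested members, compared to 17.7% of all tested genes, and in the lower direction for 1, compared to 16.3%. With 3 against 3 libraries, 0.1 is the smallest p that an exact permutation test (two-sided) allows for any 1 gene. This test gave 0.1 for *Bcl2l11*, *Bnip3l* and *Bid*, 0.2 for *Bmf*, 0.3 for *Bbc3* and *Pmaip1*, 0.6 for *Bad* and 1.0 for *Bnip3*.

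To compare the members with each other, normalized counts were divided by the length of the union of exons in kb. In WT cells *Bid* was the highest at 1929 ± 125 normalized counts per kb (SD, n = 3), followed by *Pmaip1* at 604 ± 65.0, *Bcl2l11* at 509 ± 32.5, *Bnip3l* at 483 ± 63.3, *Bnip3* at 311 ± 90.0 and *Bbc3* at 182 ± 55.2. *Bad* and *Bmf* were low, at 53.4 ± 17.8 and 29.5 ± 9.33 per kb. In this order, the WT libraries of *Bcl2l11* and *Bnip3l*, of *Bad* and *Bmf*, and of *Bik* and *Hrk* overlapped, and those of the other neighbours did not. The place of *Bcl2l11* depends on the length that is used, since over the longest transcript of each gene it was at 812 per kb in WT, above *Pmaip1* at 605.

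In hnRNPL-deficient cells *Bid* was still the highest member at 1432 ± 88.9 normalized counts per kb, but *Bcl2l11* (928 ± 34.5) and *Bnip3l* (854 ± 101) were above *Pmaip1* (523 ± 73.4). The libraries of *Bcl2l11* and *Bnip3l* overlapped, as in WT. As a share of the sum of all 10 members per kb, *Bid* went from 47.0% to 32.5% of the group means, *Bcl2l11* from 12.4% to 21% and *Bnip3l* from 11.8% to 19.3%. The sum itself was 4404, 4104 and 3801 in WT and 4457, 4419 and 4363 in hnRNPL-deficient libraries. These ranges overlapped.

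**Figure D3:**
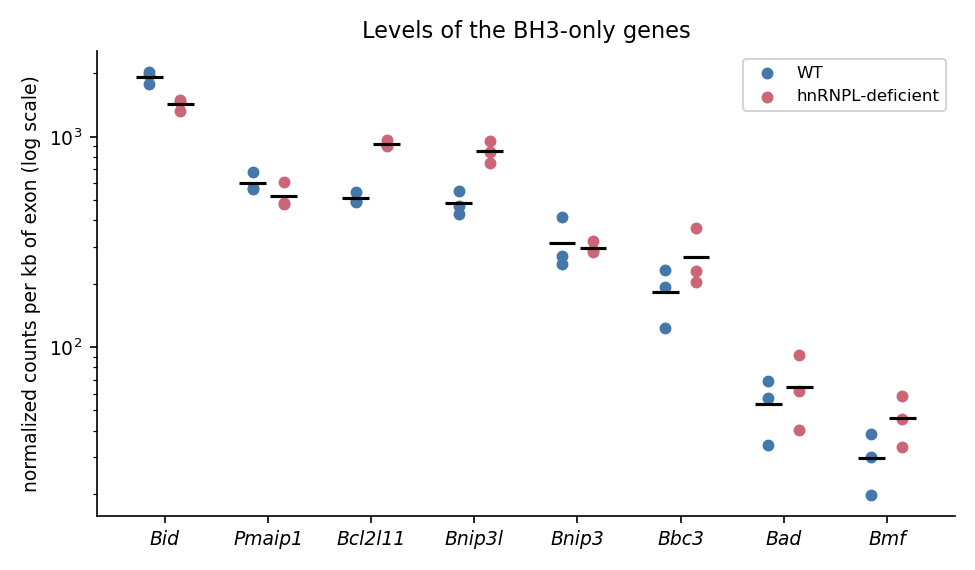
Normalized counts per kb of exon (y axis, logarithmic) of the 8 tested BH3-only genes in the 3 WT and the 3 hnRNPL-deficient libraries (points), with the group means as lines. *Bid* is the highest member in both groups, *Bcl2l11* and *Bnip3l* lie above *Pmaip1* in hnRNPL-deficient cells, and *Bad* and *Bmf* are the lowest.

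The 3 members with the widest intervals shared part of their spread between libraries. As log2 differences from the WT mean, *Bbc3*, *Bad* and *Bmf* were at -0.52, -0.58 and -0.51 in WT library 1, and at 0.39, 0.43 and 0.43 in WT library 2. In hnRNPL-deficient library 2 they were at 1.07, 0.83 and 1.03, each above the other 2 libraries of that group. They did not move together throughout, since hnRNPL-deficient libraries 1 and 3 were at 0.38 and 0.20 for *Bbc3*, 0.27 and -0.35 for *Bad*, and 0.23 and 0.68 for *Bmf*. The longest transcript of *Bbc3* has 65.2% GC, that of *Bad* 57.1% and that of *Bmf* 53.7%. When all tested genes were divided into 5 equal parts by GC content, in the part with the highest GC content (54.5 to 82.9%), the median log2 difference from the WT mean was -0.14, 0.11 and 0.05 in WT libraries 1 to 3, and -0.05, 0.10 and -0.20 in hnRNPL-deficient libraries 1 to 3. In the part with the lowest GC content (17.1 to 43.2%), it was 0.09, -0.01 and -0.07 in WT, and 0.04, 0.01 and 0.23 in hnRNPL-deficient libraries. Thus WT library 1 was low and both libraries 2 were high for the most GC-rich genes, as for *Bbc3* and *Bad*, which belong to that part, although the shift of all its genes was smaller. In hnRNPL-deficient library 3 the most GC-rich genes were below the WT mean, as was *Bad*, while *Bbc3* was above it. *Bmf* belongs to the next part (50.5 to 54.5% GC), where hnRNPL-deficient library 2 was at -0.0018 and library 3 at -0.10, unlike *Bmf*. The part of GC content in the spread of these genes was not tested, and *Bcl2l11* and *Bnip3l* had log2 fold changes of 0.88 and 0.76 after correction for GC content.

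**Figure D4:**
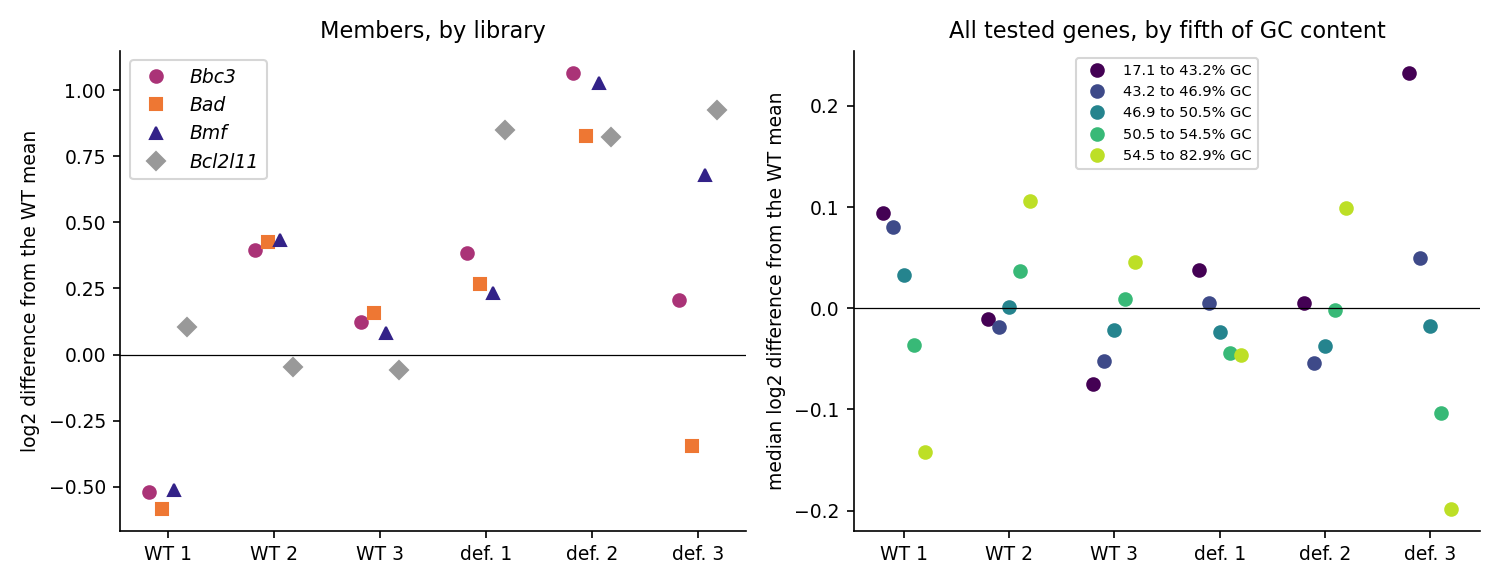
Left, log2 difference from the WT mean of *Bbc3*, *Bad*, *Bmf* and, for comparison, *Bcl2l11* in each library (x axis, with def. for hnRNPL-deficient). Right, the median of the same difference over all tested genes in 5 equal parts of GC content of the longest transcript, on a narrower y axis. *Bbc3*, *Bad* and *Bmf* are lowest in WT library 1 and highest in hnRNPL-deficient library 2, and the most GC-rich genes are low in WT library 1 and hnRNPL-deficient library 3.

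FoxO factors, p53 and HIF are known to act on promoters of this family, so their motifs were searched in the 300 bases around each RefSeq start (250 before and 50 after, GRCm38.p6). There were 13 such windows for 7 of the members, whereas *Bik*, *Bnip3l* and *Pmaip1* were not searched. The FoxO motif GTAAACA, on either strand, was in 2 of the 13 windows and in 3.65% of 32851 windows of all genes. Its 2 matches are shown with the bases around them, the motif in capitals, because they lie at *Bcl2l11* and *Bbc3*.
Bcl2l11: aagacactaggGTAAACAcgccggggtgg
Bbc3: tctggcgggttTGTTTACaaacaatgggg
The first stretch is at chr2:128125800-128125828, and its motif ends 220 bases before the start. The second is at chr7:16310083-16310111, and its motif, on the opposite strand, ends 160 bases before a RefSeq start of *Bbc3*. That start lies inside the gene as annotated (chr7:16308393-16318205). Both genes also had other windows, which did not hold the motif. The HIF core ACGTG, on either strand, was in 3 windows (1 each of *Bbc3*, *Bmf* and *Bnip3*), and in 19.6% of all windows. The p53 motif, searched as a single decamer of the response element, was in 1 window of *Bmf* and in 8.36% of all. A match describes the letters of the window and no binding was measured here.

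The other genes of the pathway were described through 9 lists of 124 genes. Of these, 116 were tested, 32 were called higher and 7 lower, where 7.28% of all tested genes were called higher and 4.08% lower. Of the proteins that BH3-only members bind, the antiapoptotic genes gave 0 higher and 3 lower calls among 7 tested, with a median log2 fold change of -0.10. The 3 were *Bcl2a1a*, *Bcl2a1b* and *Bcl2a1d*, with log2 fold changes of -0.70, -0.71 and -1.12 and limma adjusted p of 0.0172, 0.0094 and 0.0029. They encode copies of A1, a partner of BIM and NOXA, and are near-identical, hence reads could be split between them and each value is uncertain. *Mcl1*, *Bcl2* and *Bcl2l2* had log2 fold changes of 0.35, 0.33 and 0.32 (limma adjusted p of 0.0390, 0.103 and 0.167). For each of them the groups did not overlap and the change was below the fold required. *Bcl2l1* was at -0.10, with overlap of the groups. The effector *Bax* had 2292 ± 118 normalized counts in WT and 4038 ± 213 after loss of hnRNPL, and rose by 0.82 on the log2 scale (limma adjusted p of 0.0020), compared to a log2 fold change of -0.06 for *Bak1*.

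Downstream of the pore, 1 of 13 tested genes was called higher and 1 lower, with a median log2 fold change of -0.07. They were *Apaf1*, the scaffold of the apoptosome, at 0.65 (limma adjusted p of 0.0069) and *Htra2*, a mitochondrial protease, at -0.60 (0.0192). None of the 13 tested genes whose proteins modify or hold BH3-only proteins was called, and their median was -0.01. At mitochondria to be removed, where NIX acts, 3 of 14 tested mitophagy genes were called higher and none lower, with a median of 0.08. The called genes were *Map1lc3a*, *Pink1* and *Calcoco1*, with log2 fold changes of 1.54, 0.97 and 0.92. *Phb2* was at -0.44 (limma adjusted p of 0.0813) without overlap of the groups, under the fold required.

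Among transcription factors known to act on BH3-only genes, 1 of 12 was called higher and 1 lower, with a median log2 fold change of 0.15. *Foxo3*, known to activate *Bcl2l11*, had a log2 fold change of 0.89 (limma adjusted p of 0.0016), and *E2f1* one of -0.81 (0.0460). *Foxo1* was at 0.45 (limma adjusted p of 0.0163) and *Egr1* at 0.37 (0.0810), both without overlap of the groups. *Myc* was at -0.44 (0.0976), with overlap. These changes were under the required fold. *Trp53*, which encodes p53, was at -0.26 (0.237) and was not called. Of other known FoxO targets 5 of 14 were called higher and none lower, with a median of 0.47. They were *Il7r* at 2.77, *Ccr7* at 0.96, *Ccng2* at 0.90, *Fbxo32* at 0.74 and *Bcl6* at 0.64. Of known HIF targets, to which *Bnip3* and *Bnip3l* belong, 4 of 21 others were called higher and 2 lower, with a median of 0.12. *Ddit4*, *Ndrg1* and *Mxi1* were at 1.55, 1.53 and 1.07, and *Pdk1* was at -0.96. The normalized counts of the HIF list summed to 54256–64126 in WT and 41062–51858 in hnRNPL-deficient libraries, without overlap. Such a sum follows the most abundant genes of the list.

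Of 20 tested targets of p53 outside the family, 17 were called higher and none lower, with a median log2 fold change of 1.40. *Phlda3* was at 4.42, *Plk2* at 4.03, *Cdkn1a*, an inhibitor of the cell cycle, at 3.34 and *Trp53inp1* at 2.74. By comparison, the BH3-only p53 targets *Bbc3* and *Pmaip1* were at 0.55 and -0.21, neither of which was called. Some of the listed genes, *Cdkn1a*, *E2f1* and *Pink1* among them, are named by the study for these same libraries, so the counts of their lists are not independent evidence of a direction.

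**Figure D5:**
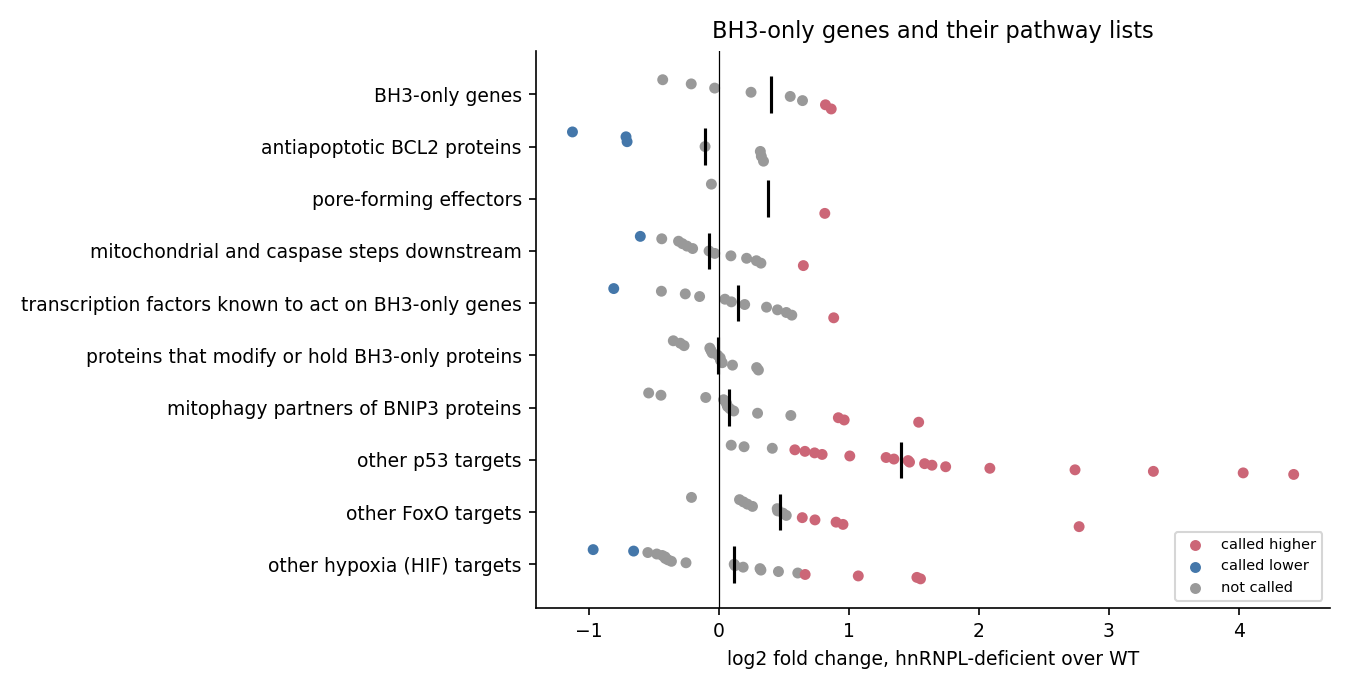
Log2 fold change (hnRNPL-deficient over WT) of each tested gene of the BH3-only family and of the 9 pathway lists, by list, with genes called higher in red, called lower in blue and not called in grey, and the median of each list as a line. The other p53 targets lie all above 0 with a median of 1.40. The antiapoptotic genes have a median of -0.10 and 3 calls below 0, all of them copies of A1.

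The genes whose pattern over the 6 libraries was most like those of the called members were found among the 13881 tested genes whose mean reached 50 normalized counts, by the root mean square difference of their log2 values from the WT mean. For *Bcl2l11* these were *Mctp2*, *Gm14325* and *Pde4b*, a cAMP phosphodiesterase, at root mean square differences of 0.049, 0.057 and 0.062. Their log2 fold changes were 0.88, 0.84 and 0.81. For *Bnip3l* they were *Bmt2*, *Poglut2* and *Sh3d19*, at differences of 0.038, 0.049 and 0.057, with log2 fold changes of 0.85, 0.81 and 0.87. The measure includes the difference between the groups, so log2 fold changes near those of the members follow from the way the genes were chosen.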

How the data were processed

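RNA-seq libraries of sorted GFP+ splenic B cells from 3 WT and 3 hnRNPL-deficient mice were grouped by the submitters' labels. Poly(A) RNA was sequenced. The authors trimmed reads (fastp 0.23.1), aligned them to mm10 (STAR 2.7.9a), counted them per gene with featureCounts and divided the counts by DESeq2 (1.38.2) size factors. The deposited values are these normalized counts (a signal, not whole numbers). The deposited table also holds the authors' log2 fold changes, test scores and p-values, which were not used.

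The test was limma (3.58.1, R 4.3.3) on log2(normalized count + 1), a scale that understates changes of low genes, with the variance trended on the mean, for genes averaging at least 10 and with Benjamini-Hochberg adjustment over all of them. The script was tested on simulated data. Values were whole multiples of 1 read for 100% of values in each library, within 0.01 of a read, and edgeR (4.0.16, quasi-likelihood) and DESeq2 (1.42.0) were run on the reads of 5 libraries. The reads of hnRNPL-deficient library 2 were left out of these count tests, since a separate automatic check of whole reads did not accept its column, in which 1 read is worth 1.01 normalized counts. Each library is from another mouse, and p-values set the difference of the groups against the spread between mice. In limma, the spread of each gene is moderated by the trend over all genes. Poisson intervals cover counting error only.

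Coordinates, lengths, GC content and coding sequences are from GENCODE M21 (GRCm38), while the authors used a later release. Promoters are from RefSeq on GRCm38.p6. GC content was known for 99.7% of tested genes. Alternatives were other pseudocounts, filters, scalings, weights, *Xist* as a covariate, a replicate block, count tests and leaving out each library. Correction for GC content was added after seeing the data. The members, lists and tests were chosen with earlier results of these data known. Named genes are the 10 members, *Hnrnpl*, *Xist*, up to 4 called genes of each list by size of change and the 3 nearest patterns of the called members. Others (*Mcl1*, *Bcl2*, *Bcl2l2*, *Bcl2l1*, *Bak1*, *Foxo1*, *Egr1*, *Myc*, *Trp53*, *Phb2*, the remaining called FoxO target and single markers) were named after their values were seen. The summed B cell marker list is not reported here.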

Additional observations from a re-analysis of the deposited data

How the results depend on the processing

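*Bcl2l11* and *Bnip3l* were called under each of the 20 alternatives at a fixed threshold, edgeR and DESeq2 on 5 libraries included. The sign of *Bnip3* turned when libraries were scaled to equal totals (log2 fold change 0.025) or weighted (0.20), and over libraries left out it was -0.18 to 0.19. That of *Bad* turned with edgeR (-0.036) and DESeq2 (-0.052), both run without hnRNPL-deficient library 2. In limma without that library, the log2 fold change of *Bad* was -0.039, and over libraries left out it was -0.042 to 0.55. With a replicate block 3 members were called higher, the third being *Bmf* (adjusted p of 0.0245). The block raised all genes called from 1284 to 1755 higher and from 719 to 1018 lower. Correlations between same-numbered libraries were 0.43, 0.32 and 0.07. Each hnRNPL-deficient library was most like the WT library of its number. The margin was small for library 2 (0.31 with WT library 3) and library 3 (0.05 with WT library 1). WT library 3 was more like hnRNPL-deficient library 2 than library 3. The labels do not say whether equal numbers are pairs, so the main test did not take them as pairs. With GC correction 3 members were called, the third being *Bbc3*. The members' median log2 fold change of 0.40 was 0.14 in edgeR and 0.12 in DESeq2, both without hnRNPL-deficient library 2. In limma it was 0.14 to 0.61 over libraries left out, lowest without that same library. Called pathway genes on the lower side numbered 3 with library weights and 3 to 10 over libraries left out. All genes called higher and lower numbered 830 to 1111 and 478 to 696 over libraries left out. At an adjusted p under 0.05 and 2-fold, 0 members were higher, with 610 genes higher and 216 lower in all, and with no minimum fold 1 member (*Bid*) and 1406 genes were lower. The cause of these changes was not tested, other than fewer libraries or another threshold. *Bik* and *Hrk* had too few reads for the main test. With no filter beyond a mean above 0 they were tested, and neither was called (limma adjusted p of 0.957 and 0.394).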
